A study of Mus musculus with 9 samples.

Results

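Muc1, Muc4, Muc13 and Muc20 encode membrane-bound mucins, and they were followed across 3 adjoining zones of the mouse stomach. All probe sets whose only annotated gene symbol was Muc1, Muc4, Muc13 or Muc20 were taken, which gave 8 of the 45101 probe sets on the array: 1 for Muc1, 3 for Muc4, 2 for Muc13 and 2 for Muc20. Of these, 5 passed the filter on dim signals, at least 1 for each of the 4 genes. The zones were the corpus (the acid-secreting glandular stomach), the forestomach (a keratinised, gland-free pouch with squamous epithelium) and the squamocolumnar junction between them, called the junction here. The mice were healthy, untreated C57Bl/6 females aged 3 months, and no zone carried a mutation, a transgene or a treatment. Neighbouring tissue stripes 600 to 800 µm wide were cut from 9 mice, and tissue of 3 mice was pooled into each of 3 series, so that a zone was measured on 3 arrays and each series used one set of mice for its 3 zones. The comparisons ask how the junction and both of its neighbours differ.

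Membrane mucins are long, heavily O-glycosylated proteins anchored in the apical membrane of epithelial cells. They form part of the glycocalyx beneath the secreted mucus gel, can be shed by proteases, and carry short cytoplasmic tails that take part in signalling. Muc1 is a well-known apical mucin of gastric surface cells and binds the EGF receptor, β-catenin and galectin-3. Muc4 is a ligand-like partner of the receptor ErbB2, Muc13 is a mucin of the glandular stomach and intestine, and Muc20 binds the HGF receptor Met.

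Muc1 lies on chromosome 3, and Muc4, Muc13 and Muc20 lie on chromosome 16. Muc4 and Muc20 are neighbours on opposite strands, and their RefSeq gene bodies in GRCm38.p6 overlap by 4973 bases. Whether any probe of either gene falls in that overlap is not given in the sources used here. All 4 genes matched an entry in a RefSeq promoter table of the same build. The 250 bases before the annotated starts of Muc1 and Muc4 are shown because these genes had the largest differences between zones. Capitals mark the motifs TATAAA of the core promoter, GGGCGG of Sp1-type factors and CACCTG of E-box factors, searched on both strands.
Muc1, chr3:89228806-89229055, plus strand: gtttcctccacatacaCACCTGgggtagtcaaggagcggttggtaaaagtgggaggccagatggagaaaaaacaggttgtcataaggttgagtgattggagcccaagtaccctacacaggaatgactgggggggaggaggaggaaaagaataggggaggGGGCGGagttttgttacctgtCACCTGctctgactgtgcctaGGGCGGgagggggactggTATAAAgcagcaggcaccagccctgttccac
Muc4, chr16:32735636-32735885, plus strand: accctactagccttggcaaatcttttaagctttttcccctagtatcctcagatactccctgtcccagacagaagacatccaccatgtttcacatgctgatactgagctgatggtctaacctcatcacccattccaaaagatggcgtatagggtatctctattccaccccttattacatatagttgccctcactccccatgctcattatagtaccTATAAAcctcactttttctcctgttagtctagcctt
Both windows held a TATAAA, 31 bases before the start in Muc1 and 36 bases in Muc4, as did 12.4% of 32851 mouse windows of 250 bases. The Muc1 window also held 2 copies of GGGCGG, 91 and 49 bases before the start, and 2 copies of CACCTG, 234 and 70 bases before it. The first of these was present in 32.7% of all windows and the second in 17.2%. The G and C content was 54.8% for Muc1 and 43.6% for Muc4, against a median of 52.4% over all windows. The Muc4 window held none of the other motifs searched, which were AGATAA for Gata factors, for Stat factors TTCNNNGAA, for AP-1 the sequence TGANTCA, for Sox factors ACAAAG, for Ets factors AGGAAG and for Foxa factors TGTTTAC. These matches are descriptions of letters and not binding sites.

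The values were MAS5 signals on a linear scale, whose median on an array lay between 47.9 and 57.1. A probe set counted as above the filter on an array when it exceeded that array's 40th percentile, a signal of 29.0 to 36.5. Arrays of the same zone correlated at r of 0.975 or more. The zone labels were checked against cell type markers. The summed signal of 8 parietal cell markers was 37068 to 49709 on corpus arrays, 202 to 1886 on forestomach arrays and 30648 to 36451 on junction arrays. For 7 markers of squamous basal cells the sums were 534 to 680, 17622 to 21093 and 15521 to 22007 in the same order. The junction stripes held signal of both epithelia. Of the 8 parietal markers 4 were lower in junction than in corpus (11.8% of all genes tested), with a median log2 difference of -0.81. Of the 7 squamous basal markers 1 was higher and 1 lower in junction than in forestomach (21.5% and 23.1% of all genes). In such tissue pieces, fewer cells of a type and less RNA per cell cannot be told apart, and the 3 arrays per zone limit the precision of every value. Signals of different probe sets are not compared with each other.

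**Figure D1:**
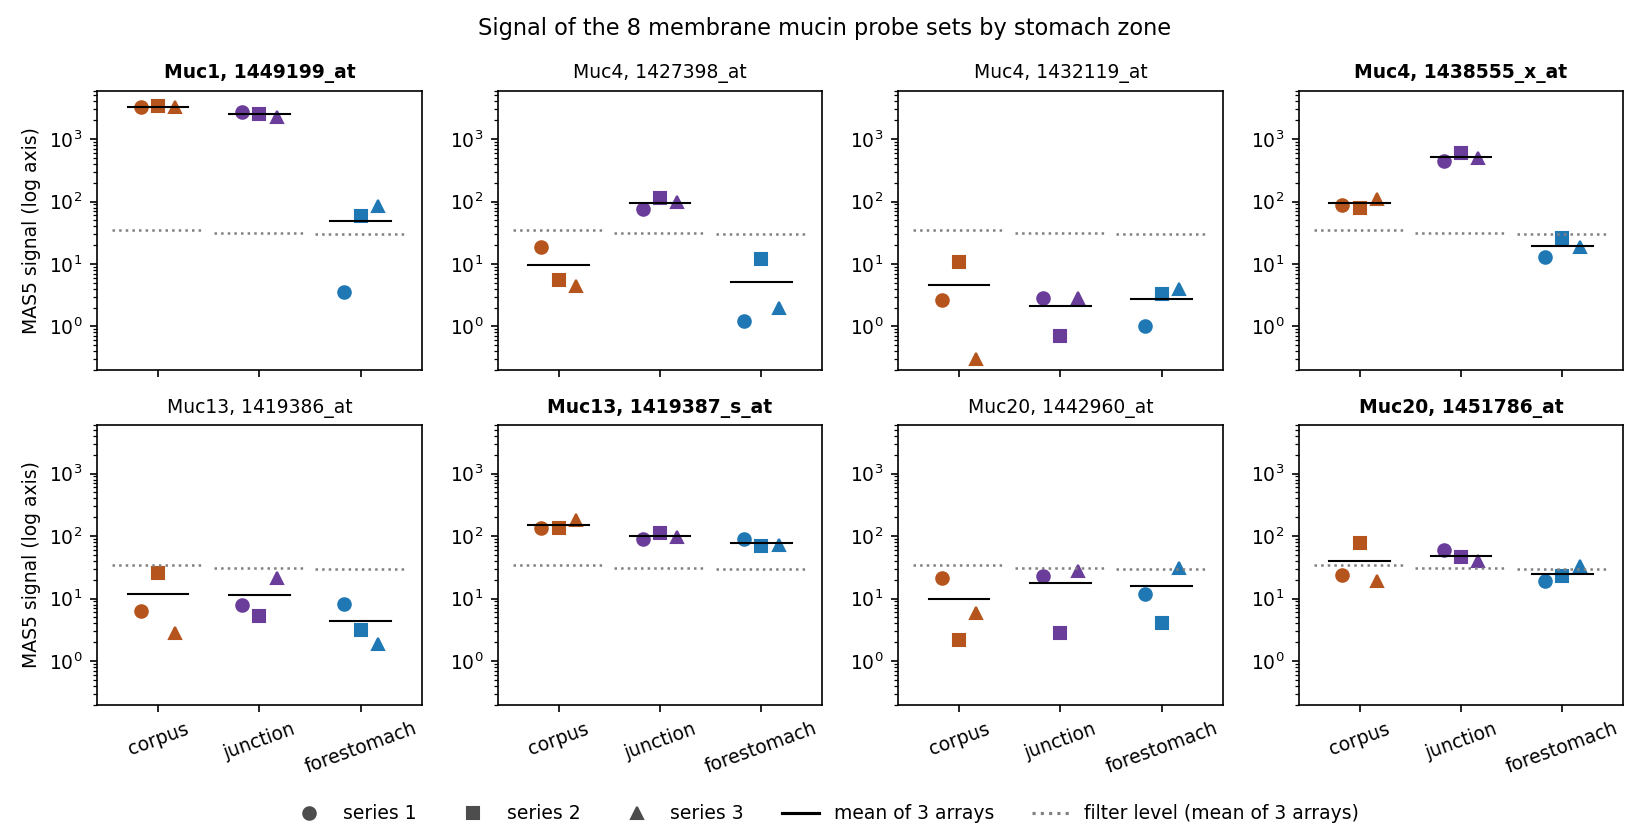
MAS5 signal (log axis) of all 8 probe sets of Muc1, Muc4, Muc13 and Muc20 in corpus, junction and forestomach; each point is 1 array, the marker shape gives its series, the black line is the mean of 3 arrays and the dotted line the mean filter level of the zone. Titles in bold are the probe sets that stand for their gene in the tests; Muc4 stands highest in the junction in the probe sets 1438555_x_at and 1427398_at, and Muc1 drops in the forestomach, furthest on the array of series 1.

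The members did not share one pattern. Of the 4 genes, Muc1, Muc4 and Muc13 were lower in forestomach than in corpus and Muc20 did not pass the test, where 29.9% of 13637 genes tested were lower and 59.9% differed in either direction. Against corpus, the junction was higher for Muc4 (13.2% of all genes) and lower for Muc13 (11.8%), with 25.0% of genes differing in either direction. Against forestomach, the junction was higher for Muc1 and Muc4, where 21.5% of all genes were higher and 44.6% differed in either direction. The 2 zones compared did not overlap in 3 of the 4 genes between forestomach and corpus (66.4% of all genes), for 3 between junction and corpus (43.8%) and for 4 between junction and forestomach (55.8%). With 4 genes these counts are given as a description. The junction rise of Muc4 above both neighbours belonged to a small class, with 0.198% of genes called above both and 0.213% called above or below both. Differences below are on the scale of log2(signal + 9.8), given with their standard error and the limma p-value adjusted over all 13637 genes, with 3 arrays per zone.

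**Figure D2:**
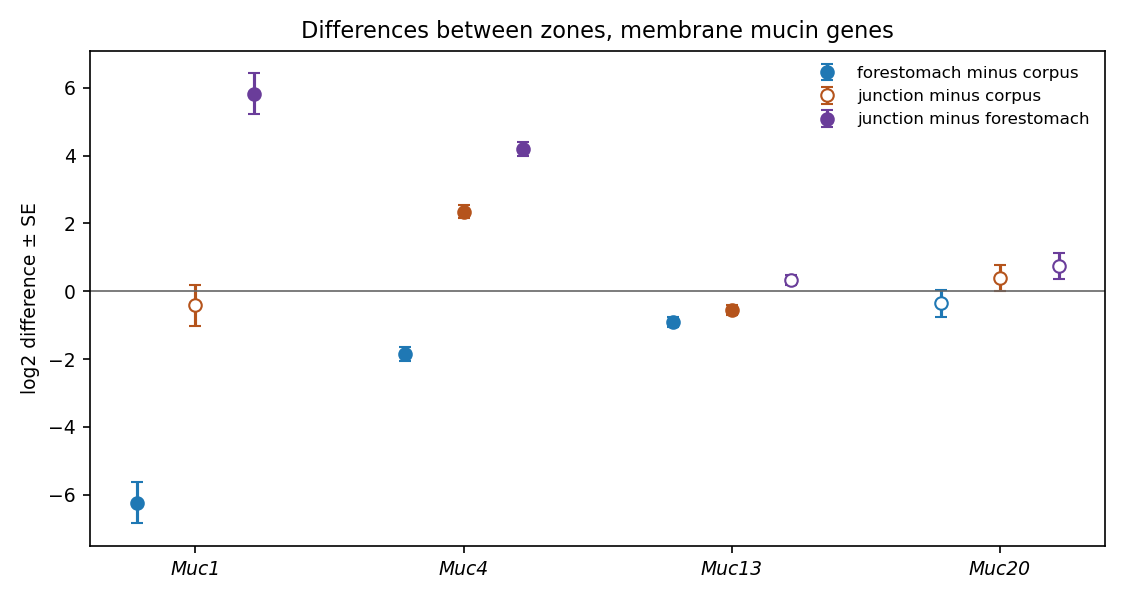
Difference on the log2(signal + 9.8) scale with its standard error for each member gene in the 3 comparisons of zones (3 arrays per zone); filled points passed an adjusted p of 0.05 and open points did not. Muc4 alone lies above 0 in both junction comparisons with both passed.

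Muc4 was highest in the junction, intermediate in corpus and lowest in forestomach. Its representative probe set, 1438555_x_at, had signals of 443.8, 606.0 and 496.3 on the junction arrays of series 1 to 3 (515 ± 82.8, mean ± SD, n = 3). The corpus arrays had 89.1, 80.1 and 111.5 (93.6 ± 16.2), and the forestomach arrays 12.8, 26.3 and 18.4 (19.2 ± 6.78). The 3 zones did not overlap, and every junction array was above the other 6 arrays.

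Muc4 was 5.08-fold higher in junction than in corpus, a log2 difference of 2.34 ± 0.20 (limma adjusted p = 5.59e-05). Against forestomach the junction was 18.3-fold higher (4.20 ± 0.20, limma adjusted p = 1.54e-06). Forestomach was 3.61-fold lower than corpus (-1.85 ± 0.20, limma adjusted p = 5.28e-05). All 3 forestomach arrays were below the filter level. Set against that level instead, the junction was at least 17.2-fold higher and the corpus at least 3.12-fold higher than forestomach. When the kept Muc4 probe sets were averaged, the difference of forestomach from corpus was -1.12 and that of junction from forestomach 3.54, and with a pseudocount of 30.9 the latter was 3.45.

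In an intersection-union test, which asks whether the junction passes both neighbours in the same direction, Muc4 had an adjusted p of 0.00418 with limma. It was 1 of 27 genes called above both neighbours and stood 14th of 13637 genes by the smaller of its 2 junction differences. With the series as a block, 12 genes in place of 29 were called above or below both, and Muc4 was among them (adjusted p = 0.0234). Leaving out a whole series left 2 arrays per zone, and the call of Muc4 was then lost with limma adjusted p = 0.115 without series 1, 0.0936 without series 2 and 0.209 without series 3. The smaller difference itself stayed between 2.13 and 2.49 in these fits.

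Within each series the junction signal of Muc4 was 4.98, 7.57 and 4.45 times that of the corpus from the same mice. All 3 ratios were above 1.

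The other probe sets of Muc4 were dim. For 1427398_at the junction arrays read 76.5, 112.5 and 96.6, the corpus arrays 19.0, 5.6 and 4.4, and the forestomach arrays 1.2, 12.0 and 2.0. This probe set passed the filter through its 3 junction arrays alone, so a difference was bound to appear and no test is given for it. Its junction signal was at least 2.72 times that of corpus and at least 3.17 times that of forestomach when both were set to the filter level. The third probe set, 1432119_at, read between 0.3 and 10.7 on all 9 arrays and was above the filter on none.

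Marker lists of other cell types were counted in the junction beside Muc4, and only some of them are described here, with no set rule. Among the lists not described, 0 of 7 surface mucous markers were higher or lower in junction than in corpus. Of 6 chief cell markers 0 were higher and 2 lower, and of 6 endocrine markers 0 were higher and 3 lower. Of all genes, 13.2% were higher and 11.8% lower in junction than in corpus. Against forestomach 21.5% were higher and 23.1% lower, and 0.198% were called above both neighbours. Of 5 tuft cell markers 4 were tested, and their summed signal was 1682 to 1903 in corpus, 159 to 256 in forestomach and 2066 to 2137 in junction. In junction 1 of the 4 was higher than in corpus, Dclk1 (1.21 ± 0.20, limma adjusted p = 0.00310, and 0.0788 without series 2), while Trpm5 (0.32), Pou2f3 (-0.03) and Avil (0.07) did not pass. Of 7 pancreatic acinar markers 2 were tested. The elastase gene Cela1 was 1.47 ± 0.28 higher in junction than in corpus (limma adjusted p = 0.00672, and 0.0879 without series 2). The carboxypeptidase gene Cpb1 read 61.0, 58.8 and 49.1 in corpus and 22.3, 16.8 and 2.5 in junction, and it passed the filter through its corpus arrays alone, so no test is given for it. Of 4 mucous neck markers tested 2 were higher and 0 lower in junction than in corpus, and 3 were higher and 1 lower than in forestomach. The chloride channel gene Cftr of that list passed the filter only with its junction arrays, so its place among the higher genes was bound to appear. Its junction arrays were at least 7.24-fold above forestomach. The other higher gene, the aquaporin gene Aqp5, was above the filter on all corpus and junction arrays. Aqp5 was 1.45 ± 0.23 higher in junction than in corpus (limma adjusted p = 0.00283). It was not called above both neighbours (limma adjusted p = 0.0584). Tff2 (0.18) and Glipr1 (0.05) did not pass in junction against corpus. Of 10 squamous suprabasal markers tested 10 were higher in junction than in corpus, and 1 was higher and 2 were lower than in forestomach. The 1 called above both neighbours was the stress keratin gene Krt6a (limma adjusted p = 0.00395, and 0.125 without series 2 or 0.209 without series 3). Of 5 immune markers tested 3 were higher in junction than in corpus and 0 higher than in forestomach, with sums of 1468 to 1645 in corpus, 2607 to 3612 in forestomach and 2593 to 2737 in junction. The part of these cell types in the Muc4 signal was not tested.

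Muc1 was high in corpus and junction and low in forestomach. The corpus arrays read 3319.4, 3412.5 and 3207.0 (3313 ± 103, n = 3), the junction arrays 2742.9, 2523.9 and 2243.8 (2504 ± 250), and the forestomach arrays 3.6, 57.8 and 85.3 (48.9 ± 41.6). Zones did not overlap, and the 3 forestomach arrays were themselves far apart, the one of series 1 below the filter level and the other two above it.

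Forestomach was 75.2-fold lower than corpus in Muc1, a log2 difference of -6.23 ± 0.60 (limma adjusted p = 3.03e-05), the 16th largest fall of 13637 genes. The junction was 56.7-fold higher than forestomach (5.83 ± 0.60, limma adjusted p = 1.04e-04), the 17th largest rise. Both sizes depended in part on the forestomach array of series 1. Without it they were -5.37 and 4.97, and with it as the only forestomach array -7.95 and 7.55. The difference of junction from forestomach was 4.90 without series 1 and 6.46 without series 3. With a pseudocount of 1 the fall in forestomach was -6.86 and with 30.9 it was -5.56.

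The junction was lower than corpus in all 3 series, at 0.826, 0.740 and 0.700 times the corpus signal of the same mice. In the fit over 9 arrays this difference did not pass (-0.41 ± 0.60, 1.33-fold, limma adjusted p = 0.664). That standard error is pooled over the 3 zones, so it includes the wide spread of the forestomach arrays, and it was 0.14 without forestomach array 1. With only the 6 corpus and junction arrays in the fit, the difference was the same with a standard error of 0.11 and an adjusted p of 0.0381. Leaving out forestomach arrays 2 and 3 is no second check, since a single forestomach array adds nothing to the spread and the fit is the same. Over all alternatives the adjusted p ranged from 0.0381 to 0.800. On a line of signal where the corpus array of a series is 0 and its forestomach array is 1, the Muc1 junction value was 0.174, 0.265 and 0.309 (0.249 ± 0.0687, SD over 3 series), nearer to corpus.

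The forestomach signal of Muc1 was 0.109%, 1.74% and 2.57% of its corpus mean in series 1 to 3. Markers of some glandular cells were also lowest on the array of series 1 and highest on that of series 3. The median parietal marker was at 0.485%, 2.87% and 4.61% of its corpus mean, and the median chief cell marker at 0.953%, 1.84% and 3.19%. The median surface mucous marker was at 1.43%, 14.7% and 7.79% and the median mucous neck marker at 25.1%, 56.8% and 40.03%, both highest on the array of series 2. The part of glandular cells in the forestomach signal of Muc1 was not tested. For Muc4 the shares were 13.7%, 28.1% and 19.7%, and for Muc13 they were 58.7%, 46.5% and 46.9%, highest on the array of series 1.

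Muc13 was highest in corpus and lower in both other zones, by far less than Muc1. Its representative probe set, 1419387_s_at, was above the filter on all 9 arrays. The corpus arrays read 135.9, 135.8 and 183.4 (152 ± 27.5, n = 3), the junction arrays 89.6, 111.6 and 97.3 (99.5 ± 11.2), and the forestomach arrays 89.1, 70.6 and 71.1 (76.9 ± 10.5). Corpus did not overlap with either zone, and the lowest junction array was only just above the highest forestomach array.

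Forestomach was 1.85-fold lower than corpus in Muc13 (-0.89 ± 0.15, limma adjusted p = 8.08e-04). The junction was 1.47-fold lower than corpus (-0.56 ± 0.15, limma adjusted p = 0.0259). This second call was fragile. With the series as a block the adjusted p was 0.0533, and with arrays centred on their medians it was 0.0944. It was also lost without corpus array 3 (0.0689), junction array 1 (0.0698) or junction array 3 (0.0754), and without any 1 series (0.0823 to 0.187). Junction and forestomach did not differ past the threshold (0.34 ± 0.15, 1.26-fold, limma adjusted p = 0.0965). The junction stood at 0.989, 0.371 and 0.767 of the way from corpus to forestomach (0.709 ± 0.313, SD over 3 series). The second Muc13 probe set, 1419386_at, read 1.9 to 25.9 and was above the filter on no array.

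Muc20 was dim and did not differ past the threshold in any of the 3 comparisons. Its probe set 1451786_at read 23.7, 78.8 and 18.8 in corpus (40.4 ± 33.3, n = 3), 59.2, 45.8 and 40.5 in junction (48.5 ± 9.64) and 19.1, 22.6 and 33.3 in forestomach (25.0 ± 7.40). All 3 junction arrays were above the filter, against 1 in corpus and 1 in forestomach, and all 3 were above every forestomach array. The corpus array of series 2 stood far above the other two and was above every junction array. Muc20 passed the filter only with its junction arrays, so no value that favours the junction is support for a difference.

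The log2 differences of Muc20 were -0.36 ± 0.39 for forestomach minus corpus (limma adjusted p = 0.451), 0.39 ± 0.39 for junction minus corpus (0.495) and 0.75 ± 0.39 for junction minus forestomach (0.146). The first of these turned to 0.15 without corpus array 2 and to 0.19 without series 2. Without corpus array 2 the junction was 0.90 above corpus, and both junction comparisons then passed. Junction against forestomach also passed with only the 6 arrays of these zones. Because the filter kept Muc20 through its junction arrays, these calls are no support for a difference. The second Muc20 probe set, 1442960_at, read 2.2 to 30.9 and was above the filter on 1 array.

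The members were also set against each other within arrays, by taking the difference of 2 members' log2 values on each array and comparing it between zones. Over 6 pairs and 3 comparisons of zones, 18 such differences were computed. The exact two-sided permutation test cannot give less than p = 0.1 with 3 arrays against 3. After Benjamini-Hochberg adjustment over the 18, the smallest value found was 0.15, so the values are a description. From corpus to junction, the Muc1 minus Muc4 value shifted by -2.75 on the log2 scale (from 5.02 ± 0.265 to 2.27 ± 0.296, SD) and the Muc4 minus Muc13 value by 2.90 (from -0.642 ± 0.0729 to 2.26 ± 0.0778), with no overlap between the zones. The Muc1 minus Muc13 value shifted by 0.15 and the Muc1 minus Muc20 value by -0.80, and both overlapped between the zones. Shifts to forestomach are not given, since Muc4 was below the filter there on all 3 arrays, Muc20 on 2 and Muc1 on 1.

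Across the 9 arrays the log2 values of Muc1 correlated with those of Muc4 at r = 0.78, with Muc13 at 0.68 and with Muc20 at 0.51. Muc4 and Muc20, the overlapping neighbours, had r = 0.52, Muc4 and Muc13 0.29, and Muc13 and Muc20 -0.01. These values describe arrays that share zones and pools of mice. The number of other genes with r above 0.95 was 626 for Muc1, 40 for Muc4, 13 for Muc13 and 1 for Muc20. These counts also depend on how large a gene's zone differences are beside its spread. They therefore do not rank how widely the 4 patterns are shared.

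The 5 genes most like Muc4 were Cd177 (r = 0.988), Lrmp (0.986), Myof (0.981), Gsdmc2 (0.981) and Dclk1 (0.980). Cd177, which encodes a surface glycoprotein, read 270.5, 315.9 and 300.0 in junction, 56.1, 50.1 and 105.2 in corpus and 9.9, 9.1 and 9.4 in forestomach, an order without overlap. Gsdmc2, a gasdermin gene, read 508.2, 633.2 and 454.2 in junction, 135.4, 202.6 and 150.4 in corpus and 69.2 to 79.0 in forestomach. Lrmp, Myof and the tuft cell kinase gene Dclk1 had mean differences of junction from corpus of 1.03, 0.70 and 1.21 on the log2 scale. These genes were chosen for their likeness to Muc4 on the same arrays, so their values are a description and no test is given here. The test of Dclk1 above was given for it as a tuft cell marker and adds nothing to its likeness. The genes most like the other members are likewise given without a test.

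**Figure D3:**
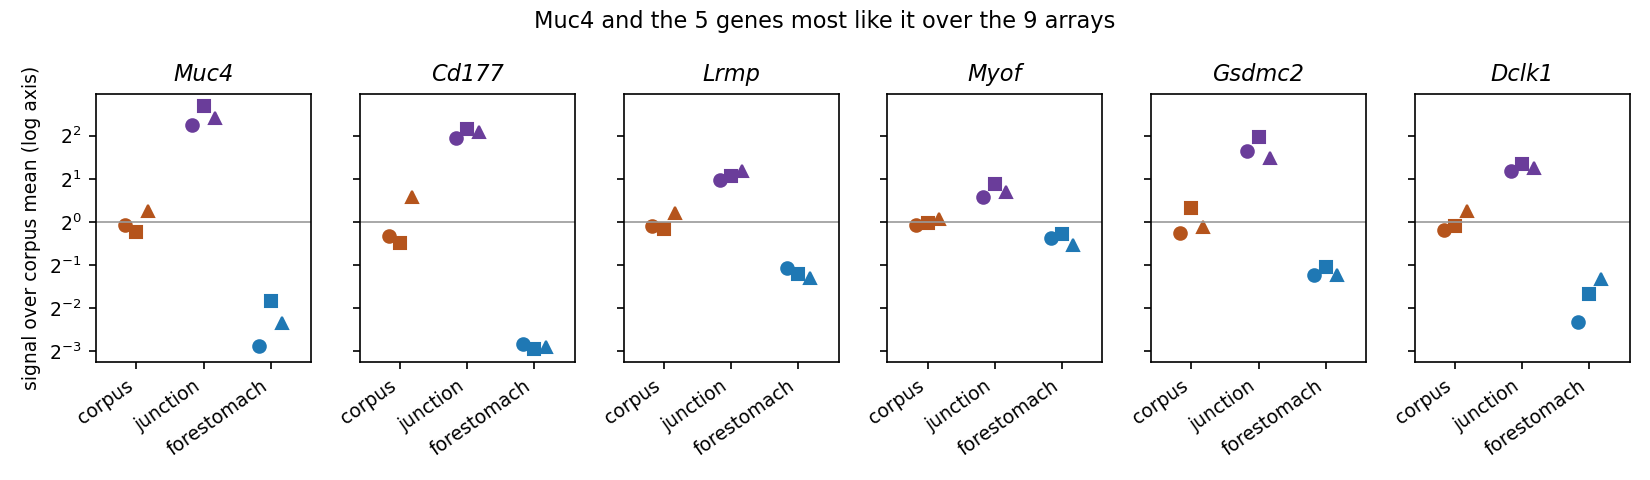
Signal divided by the gene's corpus mean (log axis, base 2) for Muc4 and the 5 genes with the highest Pearson r to it over the 9 arrays; each point is 1 array, marker shapes give series 1 (circle), 2 (square) and 3 (triangle). In all 6 panels the 3 junction arrays stand above the other 6 and the forestomach arrays are lowest.

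The 5 genes most like Muc1 were Sult1c2 (r = 0.9997), Apoa1, Tspan1, Tspan8 and Gsdma2, the others with r of 0.999. Sult1c2, a sulfotransferase gene, differed by -6.29 in forestomach against corpus and Apoa1, an apolipoprotein gene, by -6.98. Their forestomach array of series 1 was also the lowest, at 11.1 against 81.7 and 126.4 for Sult1c2 and at 15.8 against 160.3 and 279.9 for Apoa1. Without that array the 2 differences were -5.49 and -5.94. The tetraspanin genes Tspan1 and Tspan8 and the gasdermin gene Gsdma2 differed by -6.15, -6.02 and -5.82, and by -5.33, -5.10 and -5.02 without that array. Without the forestomach array of series 3 the differences of Apoa1, Tspan8 and Gsdma2 were -7.69, -6.65 and -6.43. Pxk (r = 0.974), Opa1, Notch4, Scg5 and Mfsd14a were most like Muc13, all of them lower in forestomach than in corpus. Cd46 (r = 0.955), Spdl1, Rogdi, Cope and Rilpl2 were most like Muc20.

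Other membrane-bound mucins served as a comparison, of which 5 of 10 listed genes were tested. Of these, 3 were higher and 2 lower in forestomach than in corpus (30.0% and 29.9% of all genes), with a median of 1.80 against -0.01 over all genes. The list is not limited to epithelial genes, since Emcn was also used as an endothelial marker. Muc15 read 9.5, 13.7 and 1.6 in corpus, 803.7, 822.7 and 733.8 in forestomach and 202.1, 323.9 and 305.2 in junction. Its 3 corpus arrays were below the filter level, and set against that level the signal was at least 22.7-fold higher in forestomach and at least 7.84-fold higher in junction (limma adjusted p = 4.88e-07 for forestomach). Muc16, a mucin of wet surface epithelia, was 1.80 ± 0.12 higher in forestomach (limma adjusted p = 3.59e-06) and 0.46 higher in junction, the second call being lost when any 1 corpus array, junction array 1 or junction array 3 was left out (limma adjusted p of 0.0618 to 0.0926). Mcam, an adhesion molecule also classed as a membrane mucin, was 1.83 higher in forestomach and did not pass in junction (-0.11). The sialomucins Emcn and Cd164 were lower in forestomach by 0.58 and 0.48, differences of -0.58 and -0.48. Emcn was lower in junction too (-0.41, limma adjusted p = 0.0248), a call lost with median centring (0.0696) and without corpus array 1 (0.0750), junction array 2 (0.0814) or junction array 3 (0.0588). Cd164 did not pass there (-0.18). None of the 5 was called above both neighbours, where only 0.198% of all genes were.

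**Figure D4:**
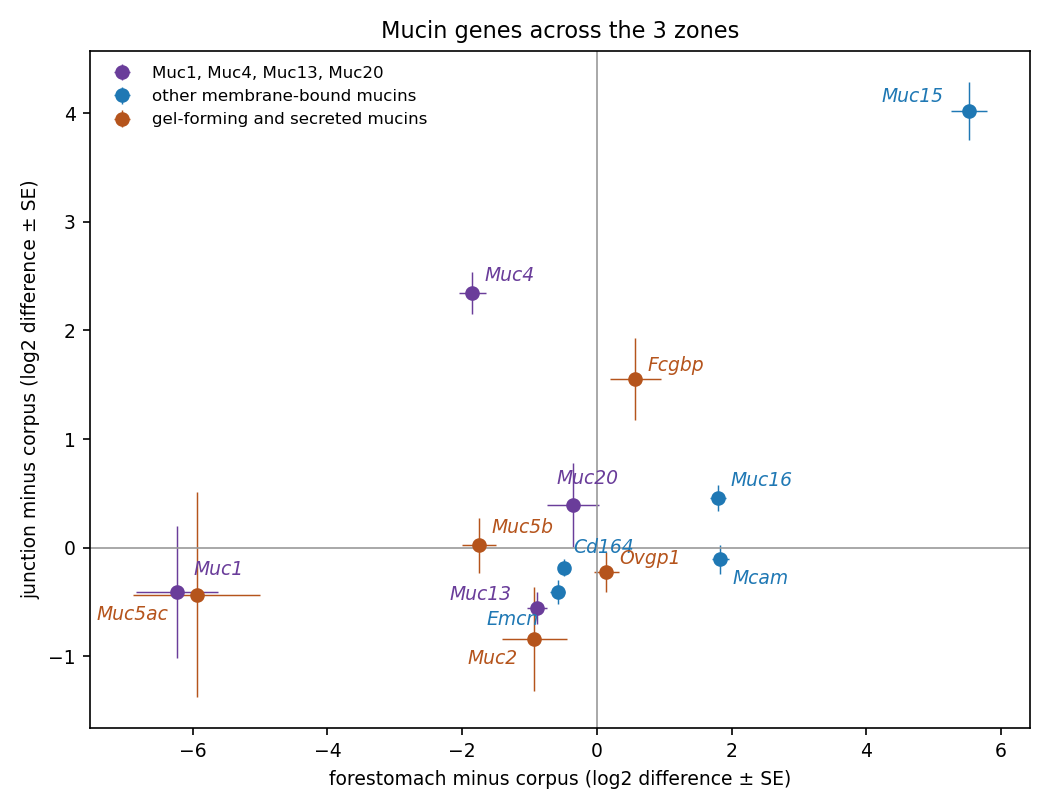
Difference of forestomach from corpus (horizontal) and of junction from corpus (vertical), each on the log2(signal + 9.8) scale with its standard error (3 arrays per zone), for the 4 member genes, 5 other membrane-bound mucins and 5 gel-forming and secreted mucins or mucus proteins. Muc1 lies beside Muc5ac at the left, Muc15 at the upper right (its corpus arrays, like the forestomach arrays of Muc4, were below the filter), and Muc4 in the upper left, lower in forestomach and higher in junction.

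Of 7 listed gel-forming and secreted mucins and mucus proteins 5 were tested, with 0 higher and 2 lower in forestomach than in corpus (median -0.93), where 30.0% of all genes were higher and 29.9% lower. Muc5ac, the main gel-forming mucin of gastric surface cells, read 10239.4 to 14464.7 in corpus, 8720.8 to 10380.8 in junction and 21.2, 472.2 and 565.3 in forestomach. Its forestomach difference was -5.94 ± 0.94 (limma adjusted p = 6.34e-04), which was -4.58 without forestomach array 1, -6.56 without array 2 and -6.69 without array 3. Muc5b was below the filter on all 3 forestomach arrays and at least 1.52-fold higher in corpus, and its junction difference from corpus did not pass (0.02). It passed the filter only with its junction arrays, so no test is given for its forestomach difference, though it is counted among the 2 lower genes. Muc2 (-0.93) and Ovgp1 (0.14) did not pass in forestomach against corpus or in either junction comparison, and Muc2 passed the filter only with its corpus arrays. Fcgbp, a mucus-binding protein gene, read 42.2 to 79.5 in junction and 8.6 to 42.6 in forestomach, with overlap, and was below the filter on all 3 corpus arrays. It passed the filter only with its junction arrays, so no test is given for it, and the junction was at least 1.71-fold above corpus. It is counted in the lists as tested.

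Partners of the membrane mucins were described next, 19 of 22 listed genes being tested. In forestomach against corpus 10 were higher and 4 lower (30.0% and 29.9% of all genes), with a median of 0.55. In junction against corpus 9 were higher and 2 lower (13.2% and 11.8% of all genes), and against forestomach 4 were higher and 5 lower (21.5% and 23.1%). Erbb2, the receptor bound by Muc4, read 197.6, 316.1 and 242.1 in corpus, 354.1, 408.6 and 378.9 in junction and 405.3, 338.2 and 358.7 in forestomach. It was higher than corpus by 0.60 ± 0.16 in junction (limma adjusted p = 0.0276) and by 0.55 in forestomach (0.0170), and both calls were lost without corpus array 1 (0.0769 and 0.0516). The forestomach call was also lost without forestomach array 1 (0.0587), and the junction call without corpus array 3 (0.0720), junction array 2 (0.0872) or junction array 3 (0.0740). Junction and forestomach did not differ past the threshold in Erbb2 (0.05).

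Met, the receptor bound by Muc20, was lower in forestomach than in corpus (-0.77 ± 0.13, limma adjusted p = 7.30e-04) with 0.02 in junction. Of the partners of Muc1, Egfr was 1.96 ± 0.12 higher in forestomach (limma adjusted p = 1.58e-06; 0.98 as the mean of its probe sets) and 0.94 higher in junction. Lgals3, encoding galectin-3, was higher by 1.82 ± 0.10 in forestomach and by 1.63 in junction (limma adjusted p = 8.75e-07 and 8.19e-06). Ctnnb1, encoding β-catenin, did not pass in forestomach (0.22 ± 0.09, limma adjusted p = 0.0547). It was 0.29 higher in junction than in corpus (limma adjusted p = 0.0423). Ezr and Rdx encode ezrin and radixin, which tie membrane proteins to actin. Ezr was lower in forestomach (-1.97 ± 0.10) and Rdx higher (1.61 ± 0.11). Tnk2, a kinase gene beside Muc4 and Muc20 on chromosome 16, passed in no comparison (0.11, 0.16 and 0.05).

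Of 7 shedding enzymes 6 were tested, with 3 higher and 3 lower in forestomach than in corpus (30.0% and 29.9% of all genes). The sialidase gene Neu1 was lower by 2.30, a difference of -2.30 ± 0.12 (limma adjusted p = 6.41e-07). The sialidase gene Neu3 read 117.1, 89.4 and 89.1 in forestomach and 3.1, 10.4 and 2.4 in corpus. It passed the filter only with its forestomach arrays, so its place among the 3 higher genes was bound to appear, and it was at least 2.82-fold above the corpus filter level. The protease genes Adam9 and Adam10 were lower in forestomach (-0.81 and -0.65) and did not pass in junction against corpus (0.03 and 0.11). The protease genes Adam17 and Mmp14 were higher in forestomach (0.64 and 0.48, limma adjusted p = 0.00115 and 0.00523). Both were also 0.64 higher in junction than in corpus (limma adjusted p = 0.00442 and 0.00387). In junction against corpus 3 of the 6 genes were higher and 1 lower (13.2% and 11.8% of all genes).

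Enzymes of mucin-type O-glycosylation, which build the sugar chains of all mucins, were mostly lower in forestomach. Of 24 tested among 27 listed, 20 were lower and 3 higher than in corpus (29.9% and 30.0% of all genes), with a median of -1.05. The count of lower genes was 14 with median centring and 15 without forestomach array 1. With quantile normalization it was 18, and with the series as a block 19. In junction against corpus 2 were lower and 3 higher (11.8% and 13.2%), and against forestomach 17 were higher and 3 lower (21.5% and 23.1%). Gcnt3, a branching enzyme gene, read 2393.2 to 2534.3 in corpus, 1888.4 to 2164.6 in junction and 1.0, 89.1 and 108.6 in forestomach, again lowest on the array of series 1. Its forestomach difference was -5.62 ± 0.76 (limma adjusted p = 2.52e-04), and it was -4.51 without forestomach array 1 and -6.24 without array 3. A4gnt (-3.86 ± 0.33) and the initiating enzyme gene Galnt4 (-2.95 ± 0.14) were lower as well (limma adjusted p = 1.36e-05 and 4.20e-07). B3gnt3 was below the filter on all 3 forestomach arrays and at least 31.0-fold higher in corpus (limma adjusted p = 2.18e-07).

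Among transcription factors known to act on mucin genes 13 of 18 were tested, with 7 lower and 3 higher in forestomach than in corpus (29.9% and 30.0% of all genes; median -3.55). Spdef, a factor of mucous cells, was below the filter on all 3 forestomach arrays and at least 18.9-fold higher in corpus (limma adjusted p = 6.19e-08). Hnf4a read 1182.8 to 1389.4 in corpus and 4.6, 45.3 and 42.8 in forestomach, a difference of -5.20 ± 0.44 (limma adjusted p = 1.36e-05) that was -4.56 without forestomach array 1. Hnf4a did not pass in junction against corpus (-0.49, limma adjusted p = 0.457), and it did without forestomach array 1 (0.0107). Gata6 (-4.87 ± 0.19) was lower in forestomach too, as was Foxa2 (-4.81 ± 0.43), which was above the filter on 1 of 3 forestomach arrays. No gene of the 6 lists of other mucins, partners, shedding enzymes, glycosylation enzymes and transcription factors was called above or below both neighbours in the junction. Only 0.213% of all genes were, so the lack of a call in lists of this size is no trait of them.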

How the data were processed

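Total RNA of the 9 pools was extracted with Trizol, and biotin-labelled cRNA made from 5 µg of it was hybridised to Affymetrix mouse arrays, per the labels' protocols. The deposited intensity values are signals on a linear scale, which the authors made with MAS5 according to the submitters' processing notes. The MAS5 version is not given in the sources used here. The trimmed mean of every array (2% off each end) was 200.0. MAS5 uses mismatch probes as background, which makes dim signals noisy, and probe sets ending in _x_at can hold probes shared with other transcripts. Gene symbols came from a 2016 platform annotation, updated to GRCm38.p6: 34958 probe sets had 1 symbol, 932 several and 9211 none.

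Probe sets above their array's 40th percentile on at least 3 arrays were kept (29511), and each of 13637 genes was represented by its brightest. Values were log2(signal + 9.8), where 9.8 is the median of the arrays' 20th percentiles; such folds understate changes of dim genes. Zones were compared using limma 3.58.1 (R 4.3.3) fitted to all 9 arrays, a mean for each zone, moderated two-sided tests, and Benjamini-Hochberg adjustment at 0.05; the code was checked on simulated data. Exact permutation tests used SciPy 1.17.1.

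Series numbers pair the arrays, since arrays of a series share mice. Deviations from zone means correlated at r of -0.0287 to 0.123 within a series (9 pairs). Series pools are separate mice, so the spread holds biological variation.

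Named are the 4 members, every tested gene of the lists of other mucins, up to 4 genes of each other list with the largest forestomach difference past the threshold, Erbb2, Met, Egfr, Lgals3, Tnk2 and Hnf4a, the 5 genes most like each member, and the 3 nearest tested genes on each side. Individual marker genes beside Muc4, as well as Adam17, Mmp14 and Ctnnb1, were named after their values were seen. Members and lists were chosen with earlier results of these data known. Alternatives were pseudocounts, filters, scalings, probe set rules, limma options, the series block, a 2-fold minimum, and arrays or series left out; counts of list members without forestomach arrays, under other scalings and with the block were added after seeing the data.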

Additional observations from a re-analysis of the deposited data

How the results depend on the processing

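Muc1 and Muc4 kept the direction and the call of every comparison called in the 9-array fit under all 25 alternatives, apart from the call of Muc4 above both neighbours. Leaving out arrays or series, its smaller difference ranged from 2.13 to 2.49. For Muc1, junction minus corpus was -0.41 and newly passed with only the 6 arrays compared. The fit without forestomach arrays 2 and 3 is the same fit for this comparison and adds no second result. For Muc13, forestomach minus corpus (-0.89) and junction minus corpus (-0.56) missed a 2-fold minimum. Junction minus corpus also missed the threshold with median centring (-0.45) and with the series as a replicate block (-0.56), and ranged from -0.70 to -0.41 with arrays or series left out. For Muc20 the left-out ranges were -0.83 to 0.19 (forestomach minus corpus, turning to 0.15 and 0.19 without corpus array 2 and series 2), 0.071 to 0.93 (junction minus corpus) and 0.50 to 1.02 (junction minus forestomach, 0.75 and newly passed with 6 arrays). Calls of Muc20 that favour the junction are no support, since the filter kept it through its junction arrays. Under the stricter filter Muc20 was no longer tested. Fits on 6 arrays give no value for both neighbours.

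Genes called between forestomach and corpus were 15592 over all probe sets and 3485 at a 2-fold minimum. Between junction and corpus they were 5625 and 953, and 1221 to 3319 with arrays or series left out. Between junction and forestomach they were 11024 and 2047, with 3805 without forestomach arrays 2 and 3 and 3946 to 5979 with others left out. Beyond both neighbours, 29 genes became 13 (pseudocount 1), 75 (pseudocount 30.9), 17 (no filter), 59 (stricter filter), 46 (mean of probe sets), 52 (all probe sets), 64 (limma trend and robust), 12 (replicate block), 8 (without forestomach arrays 2 and 3) and 0 to 22 with others left out. The causes were not tested. Median centring moved the median gene by 0.11 (forestomach minus corpus) and 0.10 (junction minus corpus), and 70.7% of junction minus corpus calls were then higher, against 52.8%. The block changed no other call of a member. Dim signal limits Muc20, the second Muc4 probe set and all forestomach values of Muc4.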

Other observations

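The genes next to the members on the chromosome were read out as well. Beside Muc1, Thbs3 on one side was higher in forestomach than in corpus (1.81 ± 0.17, limma adjusted p = 3.00e-05), with signals of 42.6 to 45.7 in corpus and 150.7 to 218.1 in forestomach. Trim46 on the other side was lower (-1.66 ± 0.38, limma adjusted p = 0.00480), with 76.8 to 92.1 in corpus and 33.0, 34.1 and 4.5 in forestomach. The nearest tested neighbours of Muc1 thus differed in opposite directions. Farther out, Fam189b was higher in forestomach (1.04, limma adjusted p = 2.50e-04) and Krtcap2 lower (-0.60, 3.05e-04). Mtx1 was also lower (-0.46, 0.0238), a call lost without corpus array 1 (0.0822), corpus array 2 (0.0738) or forestomach array 3 (0.0821), and Dpm3 did not pass (0.63, 0.117), though it did without forestomach array 1 (0.0282). In junction against corpus Krtcap2 was lower (-0.41, limma adjusted p = 0.00902), a call lost without any 1 series (0.0505 to 0.125), Trim46 did not pass (0.14), and Thbs3 was 0.68 higher (limma adjusted p = 0.0229), a call lost when any 1 corpus array, junction array 2 or junction array 3 was left out (0.0528 to 0.0778).

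Around the overlapping pair Muc4 and Muc20, Tnk2, Rubcn and Fyttd1 passed in none of the 3 comparisons, and neither Tnk2 nor Rubcn, the nearest tested gene on each side, followed the junction rise of Muc4 (0.16 and 0.15 in junction against corpus). The transferrin receptor gene Tfrc was lower in forestomach (-1.17 ± 0.14, limma adjusted p = 1.21e-04), as was Pcyt1a (-0.94 ± 0.08, 1.60e-05), which was 0.69 higher in junction than in forestomach (2.44e-04). Lrch3 was lower in junction than in forestomach (-0.36, limma adjusted p = 0.0341), a call lost without forestomach array 2 (0.105) or 3 (0.0652) or junction array 1 (0.0969) or 3 (0.0976). Beside Muc13, Heg1 and Itgb5 passed in no comparison, while Slc12a8 was below the filter on all 3 forestomach arrays and at least 5.85-fold higher in corpus (limma adjusted p = 1.42e-07). Umps (-1.22 ± 0.13, limma adjusted p = 5.42e-05) and Kalrn (-0.95 ± 0.16, 0.00105) were lower in forestomach too. Zfp148 was lower there as well (-0.36, 0.0203), a call lost without corpus array 2 (0.0696), forestomach array 1 (0.0571) or forestomach array 3 (0.0684). None of the neighbouring genes apart from Muc4 itself was called above or below both zones in the junction, where only 0.213% of all genes were.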
